A study of Rattus norvegicus with 16 samples.

Results

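The genes described here are those of adipocyte lipolysis and of the lipid droplet surface: the lipases Pnpla2 (adipose triglyceride lipase), Lipe (hormone-sensitive lipase) and Mgll (monoglyceride lipase), the lipase cofactor Abhd5, the lipase inhibitor G0s2, the droplet proteins Plin1, Plin4 and Cidec, the phosphodiesterase Pde3b and the glycerol channel Aqp7. They were chosen by name, and a probe was taken when its RefSeq accession led to the gene in a table of rat genes. Of the 10 genes, 8 were found that way, with 9 probes among the 30367 on the array, since Lipe had 2. All 9 probes passed the filter on dim probes, as did 21809 of the 30367 probes in all. No probe was matched to Plin1 or Plin4, which are not analysed here.

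The tissue was epididymal white adipose tissue, the visceral fat pad beside the epididymis, of male rats aged 30 days that were killed without fasting. In the HFT group (8 animals) the dams ate the high-fat diet D12492 through pregnancy and lactation and took a grape seed procyanidin extract (GSPE), 25 mg per kg body weight, in low-fat condensed milk each day. In the HF group (8 animals) the dams ate the same diet and took the milk alone. All 16 pups ate their mothers' high-fat diet to the end, so neither group was lean-fed. The labels do not tie animals to dams, and littermates, if any, enter the tests as separate animals. Total RNA was read on 1-colour Agilent arrays, with 1 array an animal, and animals are named by group and label number. Levels are log2 signal minus the array's 75th percentile, so 0 is the signal at that percentile. A level of one probe was not set against that of another, because probes differ in brightness.

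In a fat cell, triglyceride is stored in a droplet whose protein coat keeps lipases away until a hormone raises cAMP. Pnpla2, with Abhd5 as its activator and G0s2 as its inhibitor, removes the first fatty acid, Lipe the next, and Mgll the last, which frees glycerol. Pde3b breaks down cAMP and so carries the restraint of lipolysis by insulin, Cidec merges small droplets into large ones, and Aqp7 lets the glycerol leave the cell. Transcript levels are one layer of this system, much of which is set by phosphorylation and by proteins moving to and from the droplet.

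Some arrays stood apart through genes of neighbouring tissues, and the results below are given with and without them. Adiponectin (Adipoq), the defining fat cell secretion, lay between 6.31 and 7.23 on all 16 arrays, and all 14 fat cell markers were well above background on every array. Lcn5, a lipocalin of the epididymal duct, exceeded its median over the arrays by 8.63 (HFT 23), 9.32 (HFT 28) and 9.32 (HF 8) log2 units. Urothelial markers stood over 3 units high on HFT 22, HFT 24 and HF 35, and smooth muscle markers on HF 9. Hepatocyte markers stood 3.55 units high on HFT 36 and 3.92 on HF 10. Of the 12 marker lists and Lcn5, none passed 3 units on the other 7 arrays, where the largest excess for Lcn5 was 2.50 on HFT 27. Scores are means over a list, each gene centred on its own mean. The urothelial score (7 of 10 genes measured) ran from -1.68 to 5.51 in HFT and from -1.36 to 5.48 in HF. The epididymal score (16 of 18 measured, 4 of them above background on no array) ran from -0.94 to 2.02 in HFT and from -0.85 to 1.499 in HF, the hepatocyte score (10 of 10) from -1.81 to 2.70 in HFT and from -2.22 to 3.54 in HF, and the smooth muscle score (6 of 6) from -1.03 to 0.93 in HFT and from -1.13 to 3.90 in HF. The adipocyte score (14 of 14) was lowest on HFT 28 at -0.58, with -0.49 on HF 8 and -0.36 on HF 9, and lay between -0.13 and 0.30 on the other 13. Each of the 4 slides held 2 animals a group. HFT animals always lay at the last positions of a slide and HF animals at the first, so the effects of position and of treatment cannot be told apart.

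Promoter windows are shown for 3 members on which the relations between animals turn: Pnpla2 and Mgll, each of which tracked another member closely, and G0s2, which ran against Aqp7 once the arrays high for urothelial, Lcn5 or smooth muscle signal were set aside. RefSeq windows (build GRCr8, 250 bases before the transcript start to 50 after it) existed for 5 of the 8 measured genes. Pnpla2 is shown from chr1:205982029-205982328 (plus strand), Mgll from chr4:122749186-122749485 (plus strand) and G0s2 from chr13:107335899-107336198 (minus strand). Capitals mark the GC box (GGGCGG or CCGCCC), the E box (CACGTG), the TATA core (TATAA or TTATA) and the nuclear receptor half-site (AGGTCA or TGACCT).
Pnpla2: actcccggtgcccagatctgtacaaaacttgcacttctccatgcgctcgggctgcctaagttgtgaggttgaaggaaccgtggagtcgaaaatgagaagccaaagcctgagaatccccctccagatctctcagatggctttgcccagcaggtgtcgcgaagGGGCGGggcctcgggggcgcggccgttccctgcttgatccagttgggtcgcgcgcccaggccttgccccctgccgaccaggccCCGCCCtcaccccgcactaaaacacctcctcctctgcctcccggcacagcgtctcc
Mgll: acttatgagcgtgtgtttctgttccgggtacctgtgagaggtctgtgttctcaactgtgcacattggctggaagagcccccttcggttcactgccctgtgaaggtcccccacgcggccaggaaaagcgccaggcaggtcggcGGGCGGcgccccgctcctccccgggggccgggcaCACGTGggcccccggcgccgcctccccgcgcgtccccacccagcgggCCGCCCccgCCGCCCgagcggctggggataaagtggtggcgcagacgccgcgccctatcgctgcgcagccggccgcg
G0s2: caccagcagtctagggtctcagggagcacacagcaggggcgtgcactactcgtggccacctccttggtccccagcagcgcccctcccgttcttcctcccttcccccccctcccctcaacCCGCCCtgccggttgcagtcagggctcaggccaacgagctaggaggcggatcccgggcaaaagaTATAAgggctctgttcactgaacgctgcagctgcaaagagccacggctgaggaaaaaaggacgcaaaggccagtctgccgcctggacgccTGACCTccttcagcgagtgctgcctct
The Pnpla2 window held 2 GC boxes and none of the other motifs. The Mgll window held 3 GC boxes and 1 E box, which begins 74 bases before the start. The G0s2 window held 1 GC box, 1 TATA core beginning 67 bases before the start and 1 half-site after it. No motifs overlapped in these windows. Among all 33469 rat windows of the same length, 33.1% held a GC box, 6.42% an E box, 26.2% a TATA core and 16.2% a half-site. The share of G and C was 63.7% for Pnpla2, 72.3% for Mgll and 63.7% for G0s2, against a median of 51.7% over all windows. Of the windows not shown, that of Abhd5 held 3 GC boxes and 1 half-site and that of Cidec none of the motifs. Both strands were searched. These letter matches are a description, and they do not show that a factor binds there.

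The comparison of HFT with HF asks whether the extract given to dams on a high-fat diet altered these genes in the fat pads of their sons. None of the 9 member probes differed between the groups beyond the spread between animals. Differences ran from -0.27 for Pnpla2 to 0.16 for Pde3b on the log2 scale, and the 95% interval of every one contained 0. In the limma fit over all kept probes, 0 of 9 member probes passed an adjusted p under 0.05, and 0 of 9 an unadjusted one. Over the whole array 0% of probes passed the adjusted threshold and 2.36% the unadjusted one, so the absence of calls was not particular to these genes. Taking the brighter Lipe probe, 6 of the 8 genes were higher in HFT, with a median difference of 0.06, against 46.0% of all 11592 kept genes and a median of -0.01. Each member probe's adjusted p was 0.999994.

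Pnpla2, which starts the breakdown of stored triglyceride, had the most negative difference. Its level was 2.96 at the lowest (HFT 28), 3.85 at the median and 4.14 at the highest in HFT animals, against 3.51, 4.06 and 4.41 in HF animals. The groups overlapped widely, with 6 of 8 HFT animals inside the HF range. The means were 3.75 ± 0.44 in HFT and 4.02 ± 0.31 in HF (SD, n = 8 each), a difference of -0.27 ± 0.18 (SE) or 0.831-fold (95% interval 0.638 to 1.08). The unadjusted p of limma was 0.160 and the two-sided exact permutation p over 12870 assignments was 0.183. Within slides the difference was 0.25, -0.62, -0.60 and -0.09, so 1 of 4 slides went the other way. On the 9 arrays not high for urothelial, Lcn5 or smooth muscle signal the difference was -0.09, on the 10 that also included HF 9 it was -0.04, and on the 7 that also left out the hepatocyte arrays it was -0.11.

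Lipe, which acts mainly on diglyceride and is switched on by protein kinase A, was read by 2 probes. The probe A_64_P338784 read 0.05, 0.83 and 1.15 (lowest, median, highest) in HFT animals, against 0.36, 0.88 and 1.53 in HF animals. The probe A_64_P023029 read -0.06, 0.64 and 0.97 in HFT animals, against -0.15, 0.62 and 1.45 in HF animals. With both probes the HFT values lay largely inside the HF range, for 7 and for all 8 of 8 animals. The differences were -0.09 ± 0.17 and -0.12 ± 0.20 (SE), or 0.937-fold (0.726 to 1.21) and 0.920-fold (0.685 to 1.24). Across the 16 animals the probes correlated with r = 0.766 (rho 0.568, permutation p = 0.00067 and 0.0240), and with 0.593 without the 2 animals farthest from the median. Over the 13 arrays not high for urothelial markers r was 0.754 (rho 0.489, permutation p = 0.00511 and 0.0927). Without the 2 farthest of those it was 0.212, so the agreement was weaker within the narrower range that remained. A narrower range can itself lower r, so the part of those 2 animals cannot be told from this. Both probes gave a small negative difference with an interval that contained 0.

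Mgll, which completes the hydrolysis and also degrades the endocannabinoid 2-arachidonoylglycerol, read 2.50, 3.01 and 3.30 in HFT animals, against 2.07, 2.75 and 3.61 in HF animals. The HFT animals all lay inside the HF range. The difference was 0.08 ± 0.21 (SE), 1.06-fold with an interval from 0.780 to 1.43. Its spread was 0.28 in HFT and 0.55 in HF (SD), and both the lowest and the highest animal of the 16 were HF.

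The regulators of Pnpla2 differed as little. The activator Abhd5 read -1.31, -0.65 and -0.37 in HFT animals, against -1.47, -0.73 and -0.35 in HF animals, a difference of 0.07 ± 0.16 (SE). The inhibitor G0s2 read 6.58, 7.08 and 7.53 in HFT animals, against 6.63, 7.07 and 7.28 in HF animals, a difference of 0.05 ± 0.13. For G0s2 the difference was 0.26 on 10 arrays, 0.18 on 9 and 0.24 on 7, with limma adjusted p of 0.886, 0.918 and 0.811. G0s2 had the smallest range of the 9 probes over the 16 animals, 1.93-fold between the lowest and the highest. Its interval, 0.857-fold to 1.26-fold, was also the narrowest.

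The droplet protein, the phosphodiesterase and the glycerol channel gave the same picture. Cidec read 2.40, 3.01 and 3.72 in HFT animals, against 1.98, 3.11 and 3.83 in HF animals, and had the widest range, 3.60-fold over the 16 animals. Its difference was 0.10 ± 0.26 (SE), 1.07-fold with an interval from 0.727 to 1.57, and -0.34 on the 7 arrays (limma adjusted p = 0.805). Pde3b read -2.47, -2.02 and -1.63 in HFT animals, against -2.75, -2.06 and -1.86 in HF animals. For Pde3b 3 HFT animals (HFT 22, HFT 25 and HFT 36) lay above every HF animal, and the difference was 0.16 ± 0.14 (SE), 1.12-fold (0.907 to 1.38), with an exact permutation p of 0.294. Aqp7 read 2.80, 3.58 and 3.82 in HFT animals, against 2.37, 3.55 and 4.02 in HF animals. Its difference was 0.02 ± 0.22 (SE), 1.01-fold (0.737 to 1.39).

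**Figure D1:**
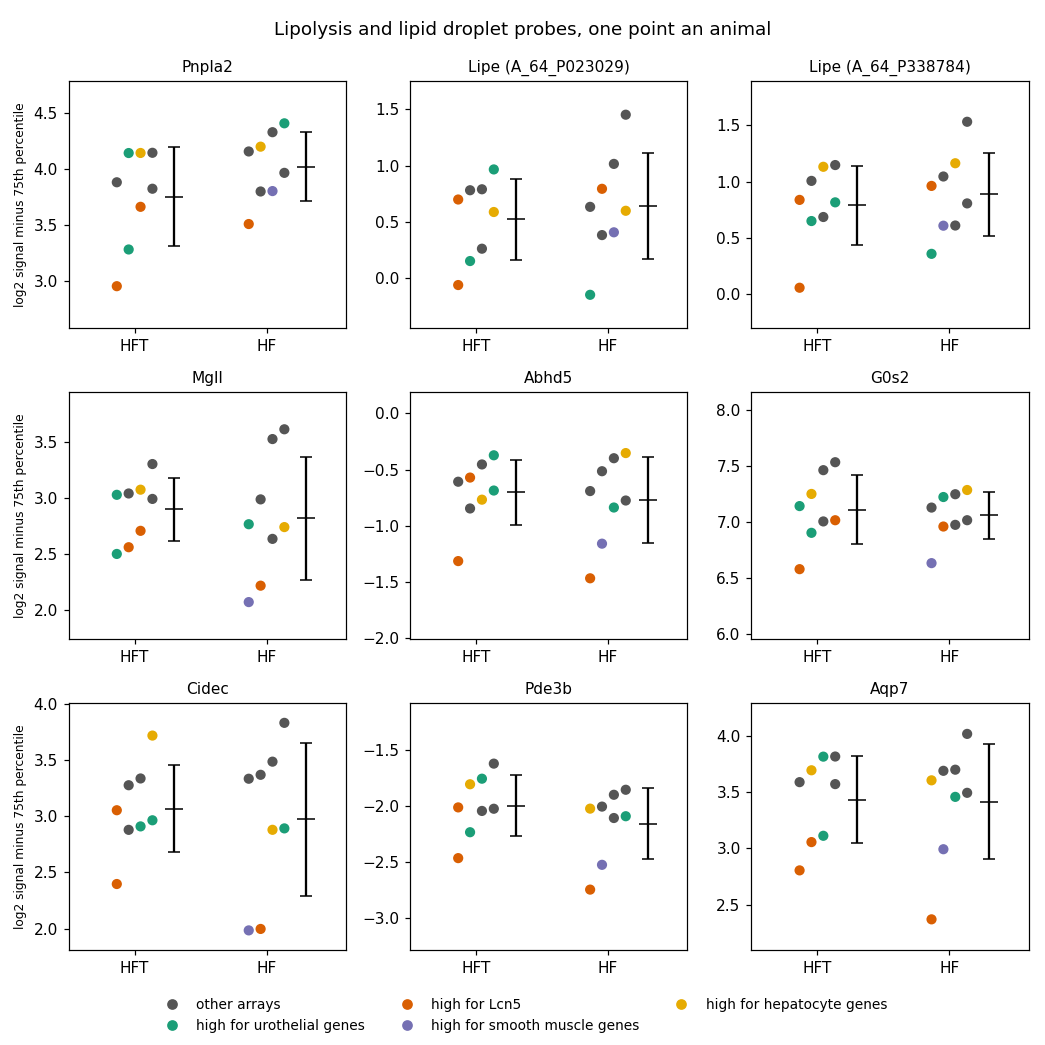
Level of each member probe in each animal (vertical axis, log2 signal minus the array's 75th percentile, each panel spanning 2.2 log2 units), with HFT left and HF right, and colours for arrays high for genes of another tissue. The bar beside each group is its mean and SD over 8 animals. The groups overlap in every panel, and HFT 28, HF 8 and HF 9 (orange and purple points) are among the lowest in most panels.

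**Figure D2:**
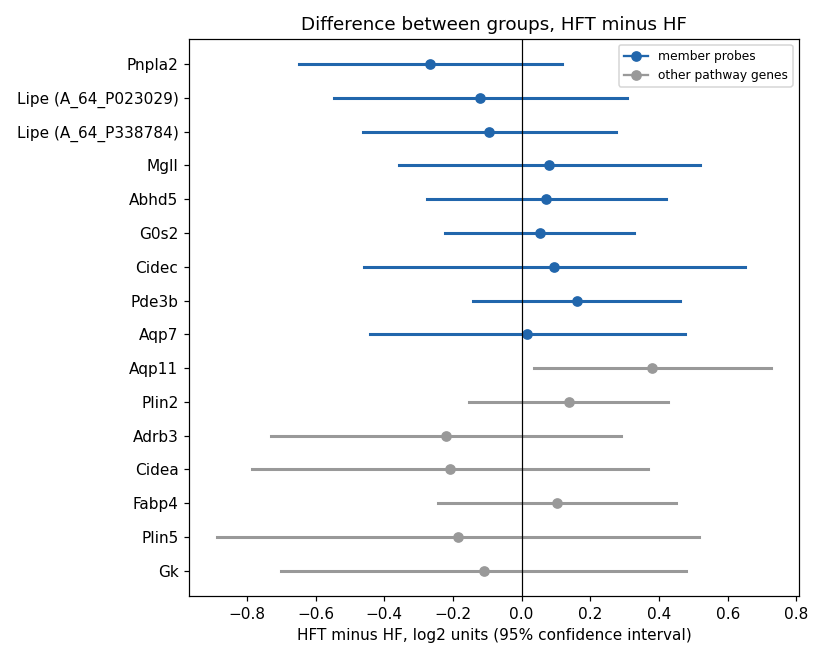
Difference HFT minus HF in log2 units (horizontal axis) with its 95% confidence interval from limma, for the 9 member probes and for 7 other pathway genes. Every member interval crosses 0, from Pnpla2 at -0.27 to Pde3b at 0.16, and of the 16 only that of Aqp11 lies to one side of it.

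The rest of the pathway was described from a list of 55 genes that control or serve lipolysis and droplets, of which 48 were kept. In limma 0 of the 48 passed the adjusted threshold and 1 the unadjusted one, against 0% and 2.36% of all kept probes. The count of 1 in 48 was thus close to the share over the array in this fit, but it ran from 0 to 9 over the alternatives. In HFT 21 were higher and 27 lower, with a median difference of -0.01, against 46.0% higher and a median of -0.01 over all kept genes. Aqp11, a water and glycerol channel of intracellular membranes, was the gene at an unadjusted p under 0.05. It read -3.39, -2.89 and -2.72 in HFT animals, against -3.84, -3.48 and -2.67 in HF animals. The difference was 0.38 ± 0.16 (SE, exact permutation p = 0.0440, limma adjusted p = 0.999994), with 7 of 8 HFT animals above the HF mean. Without the arrays high for Lcn5 it was 0.29, and with normexp background correction 0.17. The unadjusted p of limma was above 0.05 in both, and also with quantile normalization, median centring, the authors' table, array weights, without the hepatocyte arrays and on the sets of 10, 9 and 7 arrays, ranging over these from 0.0512 to 0.309.

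Of the 3 other droplet coat and CIDE genes measured, Plin2 and Plin5 encode coat proteins and Cidea a relative of Cidec that is abundant in brown fat. Plin2 averaged 2.90 ± 0.29 in HFT and 2.76 ± 0.27 in HF (SD), a difference of 0.14 ± 0.14 (SE). The Plin2 difference was 0.29 on 10 arrays, 0.21 on 9 and 0.21 on 7, with limma adjusted p of 0.886, 0.897 and 0.805. Plin5 averaged -2.98 ± 0.74 in HFT and -2.79 ± 0.66 in HF, and Cidea 4.24 ± 0.54 in HFT and 4.45 ± 0.61 in HF, with differences of -0.19 ± 0.33 and -0.21 ± 0.27. Neither pair of groups separated. Of 9 genes of droplet assembly 7 were higher in HFT, with a median difference of 0.03, against 46.0% of all kept genes and a median of -0.01.

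Upstream of the lipases, the receptor through which catecholamines act in rodent fat, Adrb3, averaged 3.61 ± 0.56 in HFT and 3.83 ± 0.45 in HF (SD), a difference of -0.22 ± 0.24 (SE). It was 1 of 4 receptors that stimulate lipolysis, of which 1 was higher in HFT. Of 6 receptors that restrain it, 5 were higher, with a median difference of 0.05. The 17 genes of cAMP signalling held 2 higher and 15 lower in HFT with a median of -0.06, and 0 of the 17 reached an unadjusted p under 0.05. Over all kept genes 46.0% were higher, with a median of -0.01, and 2.36% of all kept probes reached that p in limma. The direction counts of these short lists were not tested. Downstream, Fabp4, the fatty acid carrier of fat cells, differed by 0.10 ± 0.16 (SE) and Gk, the glycerol kinase, by -0.11 ± 0.28. Among the other hydrolases 2 of 4 were higher, and among the carriers of fatty acid and glycerol 3 of 5.

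While the groups did not separate, the animals did. The member probes ranged between 1.93-fold (G0s2) and 3.60-fold (Cidec) over the 16 animals. Over the 9 arrays not high for urothelial, Lcn5 or smooth muscle signal they ranged between 1.40-fold (Pde3b) and 2.29-fold (Lipe probe A_64_P023029). There G0s2 ranged 1.47-fold and Cidec 1.94-fold. Over the 16 animals the low ends fell repeatedly on the same animals. HFT 28 lay below all 9 arrays not high for urothelial, Lcn5 or smooth muscle signal on 9 of 9 member probes and HFT 23 on 2, against 7 for HF 8 and 7 for HF 9. The matching share over all kept probes was not computed, so these counts are not read as particular to the members. Taking 1 probe a gene, HFT 28 was among the 3 lowest of 16 animals for 7 of 8 members, HF 9 for 7 and HF 8 for 6. Of all kept genes, 38.6% had HFT 28 among their 3 lowest animals, 25.0% HF 9 and 32.7% HF 8. These are the same 3 animals with the lowest adipocyte scores, and HFT 28 and HF 8 were high for Lcn5 and HF 9 for smooth muscle. The epididymal score of HF 9 was also raised, 0.98 beside 1.17 on HFT 23, although its Lcn5 was not high. In a whole fat pad, fewer fat cells and less RNA per fat cell cannot be told apart, and the part of either in these levels was not tested.

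Members varied together across animals, and how closely depended on the arrays included. Over all 16 arrays all 28 pairs of the 8 genes correlated positively, with a median r of 0.543. Over the 13 arrays not high for urothelial markers, r ran from 0.296 (Lipe with Mgll) to 0.846 (Cidec with Pde3b), with a median of 0.660, and 16 of 28 pairs passed an adjusted permutation p under 0.05 (Benjamini-Hochberg over the 28). Of these 28 pairs 19 had an r above 0.5, against 13.4% of the 67181436 pairs of all kept genes, whose median r was 0.03. Over the 10 arrays without those high for Lcn5 the median r was 0.369 and 2 pairs passed. Over the 9 arrays that also left out HF 9, 15 of 28 pairs were positive, the median r was 0.04, and 0 passed, with 3 at an unadjusted exact permutation p under 0.05. Over the 7 arrays 13 of 28 were positive, the median r was -0.01 and 0 passed.

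Slides gave a further check, since HFT 22, HFT 23, HF 8 and HF 9 shared a slide. A slide held too few arrays for an r of its own. With each value taken as a deviation from its slide's mean, the median r over the 13 arrays was 0.594 and 0 of 28 pairs passed the adjusted threshold. As deviations from the group mean, permuted within groups, the median was 0.721 and 16 pairs passed.

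**Figure D3:**
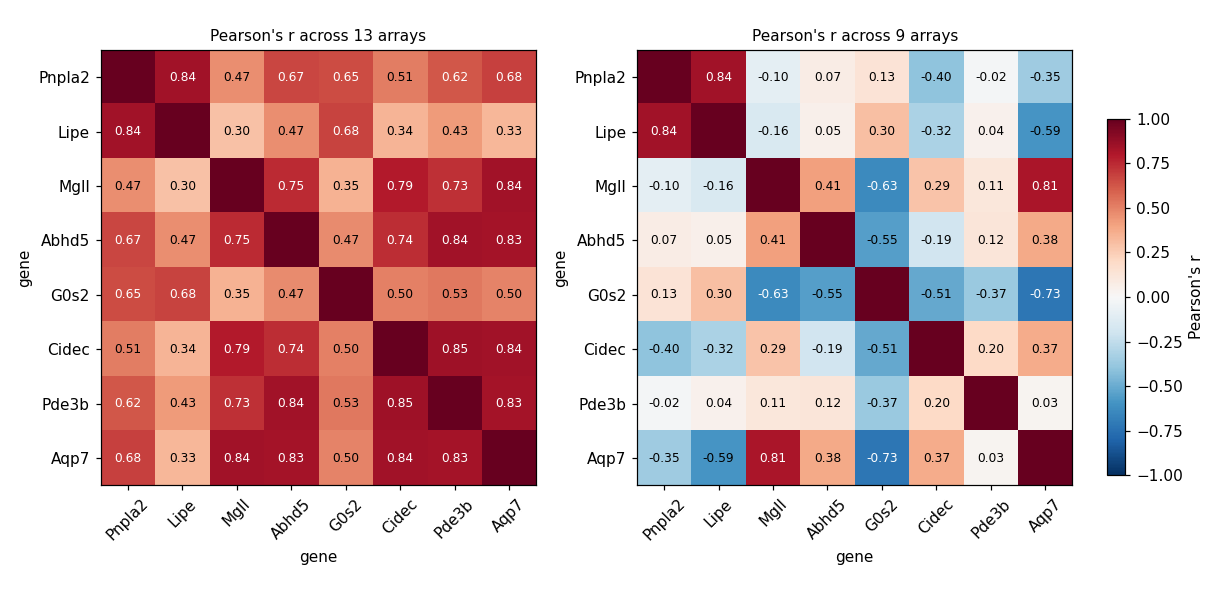
Pearson's r between each pair of members across the 13 arrays not high for urothelial markers (left) and across the 9 arrays not high for urothelial, Lcn5 or smooth muscle signal (right), with colour from -1 to 1. On the left every pair is positive, and on the right 15 of 28 are, with Pnpla2 and Lipe at 0.84 and Mgll and Aqp7 at 0.81.

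The pairs Pnpla2 with Lipe and Mgll with Aqp7 had an r above 0.8 in each of the smaller sets. They were picked from the 28 by their values. Over the 10 arrays 11 of 28 member pairs had an r above 0.5, against 11.8% of the pairs of all kept genes. Over the 9 arrays 2 of 28 did, against 11.7%, and over the 7 arrays 4 of 28, against 15.8%. On the 9 and the 7 arrays such pairs were thus no more common among the members. Pnpla2 and Lipe, which act one after the other on triglyceride, correlated with r = 0.842 over 13 arrays (rho 0.780, permutation p = 0.0008 and 0.00283, adjusted 0.00432 and 0.0202) and 0.870 over 10 (rho 0.842, permutation p = 0.00131 and 0.00383, adjusted 0.0183 and 0.107). Over the 9 arrays r was 0.843 (rho 0.833, exact permutation p = 0.00357 and 0.00827, adjusted 0.0796 and 0.231), and over the 7 arrays 0.832 (rho 0.714, exact permutation p = 0.0198 and 0.0881, adjusted 0.257 and 0.341). Without the 2 arrays farthest from the Pnpla2 median r was 0.533 over 13 arrays, 0.823 over 10, 0.792 over 9 and 0.569 over 7. Over 13 and over 7 the relation was thus weaker within the narrower Pnpla2 range that remained. A narrower range can itself lower r, so the part of those arrays cannot be told from this. For that pair r was 0.568 over all 16 arrays, where HF 35 joined the highest Pnpla2 level (4.41) to the second lowest reading of that Lipe probe (0.36). With the other Lipe probe r was 0.420 over all 16 arrays (permutation p = 0.106) and 0.650 over 13 (rho 0.401, permutation p = 0.0221 and 0.177). It was 0.651 over 10, 0.611 over 9 (exact permutation p = 0.0737) and 0.759 over 7 (exact permutation p = 0.0466). The relation was thus weaker in the probe A_64_P023029.

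Mgll and Aqp7, which produce and release glycerol, correlated with r = 0.838 over 16 arrays, 0.840 over 13 and 0.915 over 10 (rho 0.758 over 10, permutation p = 0.00045 and 0.0146, adjusted 0.0126 and 0.145). Over the 9 arrays r was 0.815 (rho 0.667, exact permutation p = 0.00569 and 0.0589, adjusted 0.0796 and 0.373), and 0.825 over the 7 (rho 0.679, exact permutation p = 0.0230 and 0.110, adjusted 0.257 and 0.341). Without the 2 arrays farthest from the Mgll median r was 0.778 over 13 arrays, 0.712 over 10, 0.829 over 9 and 0.865 over 7. On those 9 arrays HF 13 held the highest level of both genes (3.61 for Mgll and 4.02 for Aqp7) and HF 11 the lowest of both (2.64 and 3.49). After adjustment over the 28 pairs neither relation passed on 9 or on 7 arrays.

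The sign of many relations depended on the arrays used, and 13 of 28 pairs were negative over the 9. Lipe with Aqp7 had r = 0.330 over 13 arrays and -0.59 over 9, and Pnpla2 with Cidec 0.511 and -0.40. G0s2 had the lowest mean r over the 9 arrays. With Aqp7 it had r = 0.498 over 13 arrays (permutation p = 0.0813, adjusted 0.114) and -0.73 over the 9 (rho -0.75, exact permutation p = 0.0224 and 0.0255, adjusted 0.209 and 0.357), or -0.71 without the 2 arrays farthest from the G0s2 median. Over the 7 arrays r was -0.72 (rho -0.82, exact permutation p = 0.0665 and 0.0341, adjusted 0.372 and 0.341). The mean r of G0s2 to the other 7 members was 0.437 over all 16 arrays and -0.34 over 9, while that of Cidec was 0.615 and -0.08 and that of Aqp7 0.668 and -0.01. On the 9 arrays HFT 26 and HFT 27 had the highest G0s2, 7.53 and 7.46, with Aqp7 at 3.59 and 3.57, and HF 13 had the lowest, 6.97, with Aqp7 at 4.02. The highest Aqp7 thus went with the lowest G0s2 among these animals.

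**Figure D4:**
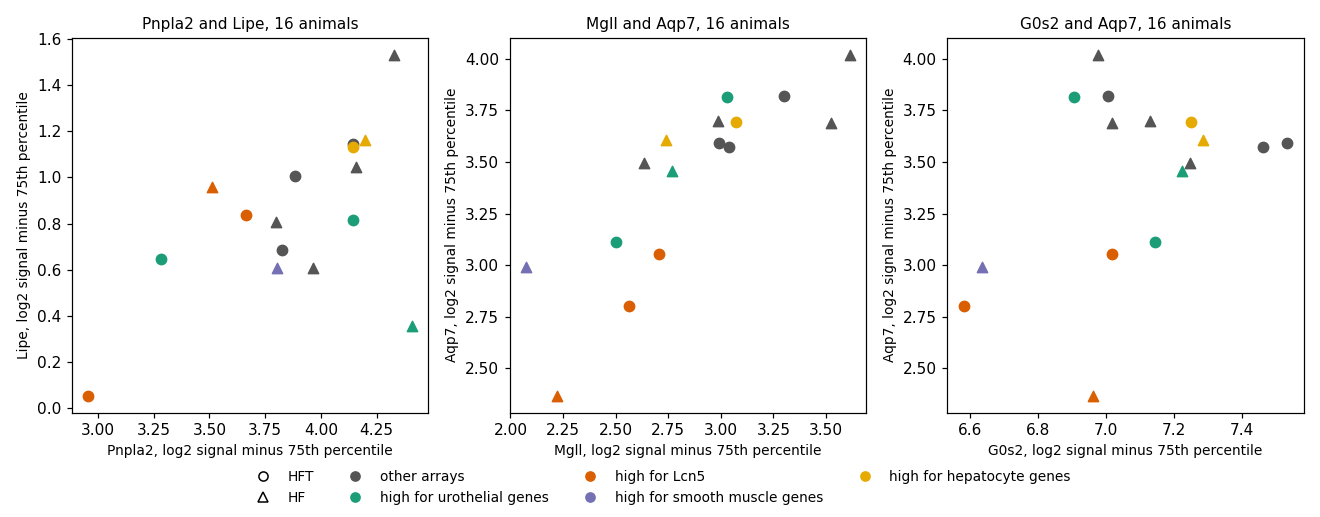
Levels of 3 pairs of members in the 16 animals (both axes log2 signal minus the array's 75th percentile), with HFT as circles, HF as triangles and colours for arrays high for genes of another tissue. Grey points, the 7 arrays without such an excess, run upward for Pnpla2 with Lipe (r = 0.832) and for Mgll with Aqp7 (0.825), and downward for G0s2 with Aqp7 (-0.72).

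Against the adipocyte score, which holds none of the members, all 8 members correlated positively over the 13 arrays, with r between 0.636 (Lipe) and 0.899 (Aqp7), a median of 0.834 and 8 of 8 at a permutation p under 0.05 adjusted over the 8. As deviations from slide means, permuted within slides only, 0 of 8 passed. With the p adjusted over all 11578 kept genes outside the score 7 of 8 members passed, against 29.7% of those genes, so a pass was common. Over the 10 arrays without those high for Lcn5 the median r was 0.625 and 0 passed. Over the 9 arrays it was 0.05 and 4 of 8 members were positive, and over the 7 it was -0.03. The epididymal score showed the reverse, with all 8 negative over 13 arrays, a median of -0.77 and 7 of 8 past the threshold. Over the 10 arrays, which still held HF 9 with an epididymal score of 0.98, 4 of 8 passed with a median of -0.70. Over the 9 and over the 7 arrays 0 of 8 passed. The share of all kept genes that passed was computed for the adipocyte score alone. Counts for the other scores are therefore not read as particular to the members. Over the 13 arrays the smooth muscle score passed for 2 of 8 members, and the macrophage, endothelial, stromal, urothelial, hepatocyte and brown fat scores for 0. Over all 16 arrays the macrophage score passed for Mgll (r = 0.655, rho 0.706, permutation p = 0.00539 and 0.00274, adjusted 0.0431 for r) and the endothelial score for Pnpla2 (r = 0.645, adjusted permutation p = 0.0316) and Lipe (r = 0.707, adjusted permutation p = 0.0218). Without the 2 arrays farthest from the score's median these were 0.706, 0.336 and 0.525.

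**Figure D5:**
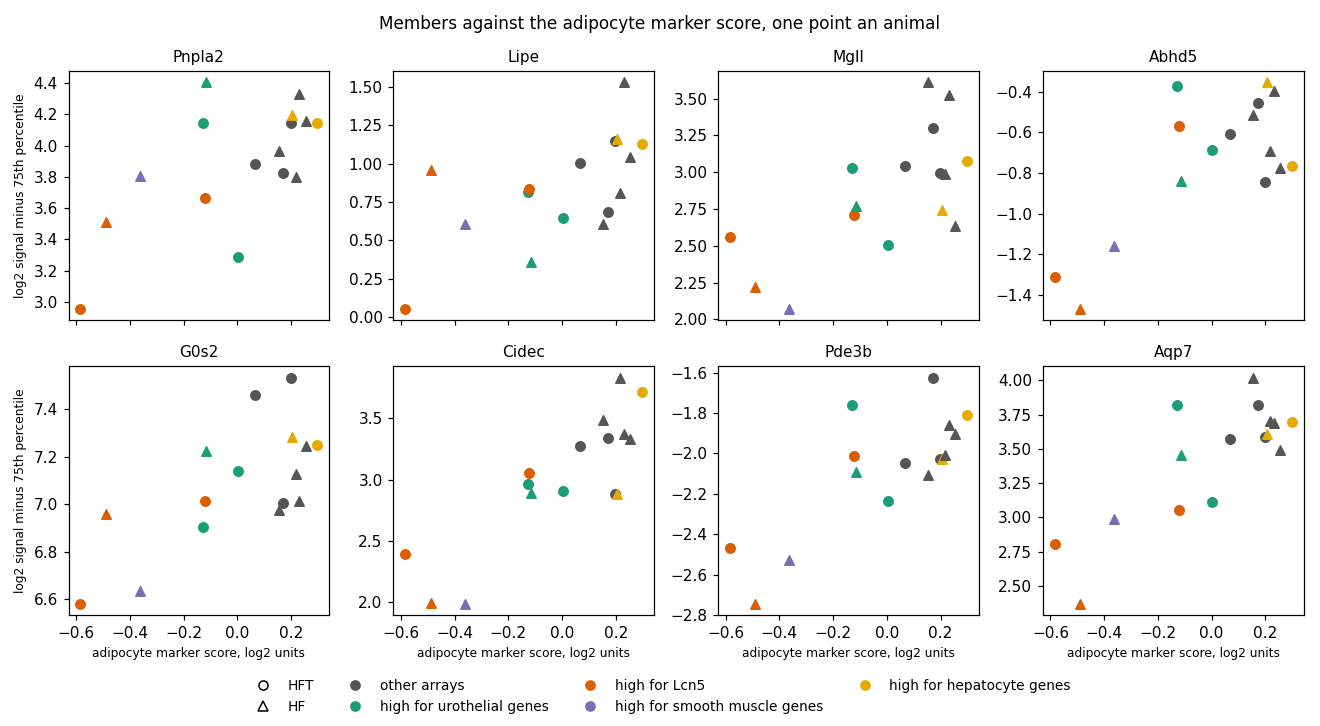
Level of each member (vertical axis, log2 signal minus the array's 75th percentile) against the adipocyte marker score of the array (horizontal axis, log2 units) in 16 animals, with HFT as circles and HF as triangles. The arrays at -0.58, -0.49 and -0.36 carry the low end of most panels, and the 7 grey points right of 0 show no common slope.

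Aqp7 had the highest mean r to the other members over the 13 arrays, 0.694. Among 11591 other genes, those with levels most like it across these arrays were Slc15a4 (r = 0.971), Slc25a39 (0.968), Mgst1 (0.967), Lamtor1 (0.966) and Ppp2cb (0.966). Over the 9 arrays their r with Aqp7 was 0.815, 0.572, 0.811, 0.825 and 0.911. The 9 arrays are part of the 13 on which these genes were picked, so the second values are no separate check. None of the genes was among the 5 most like Aqp7 over the 9 arrays alone, whose r ran from 0.936 to 0.953.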

How the data were processed

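Epididymal fat of 8 HFT and 8 HF rats was measured on 1-colour Agilent arrays (Cy3, Low Input Quick Amp), per the labels. The deposited files hold processed intensity per spot from Agilent Feature Extraction 10.7.3.1, background-subtracted and detrended but not normalized between arrays, per the file headers; the raw median intensities and spot marks came from the same files. A second deposited file gives log2 values of the same arrays; its normalization was not stated by any source used, and it served as an alternative.

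The log2 processed intensity minus each array's 75th percentile (signal 753 to 1366) was averaged over a probe's spots, without spots marked non-uniform or outlying. Kept probes were well above background on at least 4 of 8 arrays of a group. No spot was saturated, and the number of arrays limits precision. Probes were named by RefSeq accession through RefSeq genes of GRCr8, which named 18005 of 30367 probes; the array's build is rn4, so no probe coordinates are given. HFT was compared with HF by limma 3.58.1 in R 4.3.3 (lmFit, eBayes, Benjamini-Hochberg over 21809 probes), checked on simulated data. Where a gene has several probes, the one of highest mean signal stands for it in pairs and lists. Permutation tests were two-sided, with 100000 resamples, or exact for 9 arrays (Python 3.11.15, scipy 1.17.1). Marked arrays exceed the median array by over 3 log2 units in the median of a marker list (urothelial, smooth muscle, hepatocyte) or in Lcn5.

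The members and lists were chosen with earlier results of these data known. Named genes are all members, 7 pathway genes whatever their values (Hilpda had no matched probe), pathway genes at an unadjusted p under 0.05, and the 5 genes most like the member of highest mean r. The 45 pairs of 10 genes became 28. The planned epididymal list median marked no array, so Lcn5 was used, and the sets of 10, 9 and 7 arrays and the leave-one-out of the correlations were chosen after seeing the data. Background, normalization, filter, slide, array weight, covariate and array alternatives were tried.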

Additional observations from a re-analysis of the deposited data

Results flagged for a closer look

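In a gap test of single animals within a group (32 groups of 8, of which chance gives about 1 in 20), 2 results were marked. That count is close to the share chance gives. The Lipe probe A_64_P338784 read 0.0541 in HFT 28, far below the other 7 HFT animals at 0.648 to 1.15. HFT 28 was also high for Lcn5 and had the lowest adipocyte score, -0.58; their part in this value was not tested. Without HFT 28 the difference HFT minus HF for that probe was 0.011.

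Gk, the glycerol kinase, read 0.722 in HF 35, far above the other 7 HF animals at -1.65 to -0.92. The same array had the highest Ucp1 level (6.75), Cidea level (5.65) and brown fat score (1.55) of the 16, and was high for urothelial markers; their part was not tested. Without HF 35 the Gk difference was 0.14 (limma adjusted p = 0.999893).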

How the results depend on the processing

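Under the 18 alternatives to the fit and the 16 that leave out 1 animal, 0 member probes and 0 of the kept pathway genes passed an adjusted p under 0.05. Over all probes the count was 0, except 1 without the arrays high for Lcn5 (Acot5, lower in HFT by a difference of -4.38, limma adjusted p = 0.0131; named after its value was seen) and 2 on the 7 arrays (probes A_42_P707818 and A_64_P008121, with no matched gene, both higher in HFT, limma adjusted p = 0.0236 and 0.0226). The probes at an unadjusted p under 0.05, 515 in the fit reported, numbered 955 with normexp, 1167 with epididymal and urothelial scores as covariates, and 1206, 1161 and 1318 on the sets of 10, 9 and 7 arrays. Pde3b alone of the members reached an unadjusted p under 0.05, with those covariates (difference 0.23, limma adjusted p = 0.857). Pathway genes at that level, 1 of 48 in the fit reported, numbered 0 to 9 over the 18 alternatives and were other than 1 in 13 of them. All probes at that level numbered 398 to 1318 over the same alternatives. The highest pathway count, 9 of 48, was a larger share than the highest over all probes, 1318 of 21809.

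Signs turned for uncalled differences. Array weights gave -0.041 for both Cidec and Aqp7. Without the urothelial arrays Gk was 0.0085. The Lipe probe A_64_P338784 was 0.031 without the arrays high for Lcn5 and 0.032 on the 10 arrays, where Abhd5 was -0.020 and Plin5 0.052. On the 9 arrays Abhd5 was -0.12, Cidec -0.078 and Aqp7 -0.033. On the 7 arrays Mgll was -0.079, Abhd5 -0.041, Cidec -0.34, Aqp7 -0.066 and Adrb3 0.057. Without the hepatocyte arrays alone Cidec was -0.011. Leaving out 1 animal moved Aqp7 between -0.13 and 0.11, G0s2 between -0.0078 and 0.13, Mgll between -0.026 and 0.19, Abhd5 between -0.027 and 0.16, Cidec between -0.046 and 0.22, that Lipe probe between -0.17 and 0.011, and Gk between -0.20 and 0.14. The causes were not tested.

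Of 28 pairs, 16 passed over 13 arrays, against 0 as deviations from slide means (permuted within slides), 2 over 10 arrays, 0 over 9 and 0 over 7. For the adipocyte score 8 members passed, against 0 in each of the same settings. Other alternatives gave 12 to 17 pairs and 7 or 8 members, and leaving out 1 animal 12 to 17 and 6 to 8. The groups share no replicate numbers. No paired analysis was possible because HFT and HF animals carry different numbers. The alternative without arrays high for epididymal markers was not run as planned, since the list median marked none. Low signal does not limit the members, all well above background on all arrays.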
